A study of Rattus norvegicus with 54 samples.

Results

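Cultures of rat cortical neurons that received an adeno-associated virus (AAV) carrying rMBD3 and GFP were compared with cultures that received the same kind of virus carrying GFP alone, in medium with magnesium, at 24 h. The comparison used 6 of the 54 RNA sequencing libraries of the series, 3 per construct, titled AAV_SYN_rMBD3_GFP_24h_Mg (called rMBD3 here) and AAV_SYN_GFP_24h_Mg (called GFP here). All cultures were made from the cortex at embryonic day 18 (E18), and both constructs were driven by the SYN promoter. Libraries were paired by the number of the cell culture, 1 to 3, which the labels give as biological replicate and which recurs in every group. The 3 libraries titled Ctrl_24h_Mg, from untransfected cultures of the same medium and time, served as a reference. The 24 h count from the point at which the parallel cultures were moved to medium without magnesium. The other groups of the series differed in time (2, 6 or 24 h) and in the absence of magnesium.

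MBD3 is a subunit of NuRD, a nuclear complex that joins a histone deacetylase with a chromatin remodelling ATPase and is known for repressing genes and for limiting the activity of enhancers. Although MBD3 belongs to the family of methyl-CpG binding proteins, the mammalian protein binds methylated DNA only weakly. The labels do not spell out SYN; the synapsin promoter, often written that way, is used to restrict a transgene to neurons, so glia and other cells of such a culture are not the intended target. Magnesium in the medium blocks NMDA-type glutamate receptors at rest, and its removal is a common way to bring cultured neurons into epileptiform firing. The comparison described here was made without that challenge, in the standard condition. The question it addresses is how the RNA of whole cultures given the rMBD3 virus differs from that of GFP cultures in standard medium.

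The 6 compared libraries held 23712721 to 29107244 counts, and 3 counts, taken as the floor of detection, equalled 0.103 to 0.127 CPM (counts scaled by library size). Such a floor accounts for counting error alone. Mitochondrial genes took 1.85% to 3.88% of the counts in the 6 libraries and 1.75% to 4.90% in the 9 libraries with the untransfected cultures included. The count table gives Ensembl identifiers without gene symbols, and 0 of its 30560 identifiers could be matched to a symbol. Gene lists for NuRD, synaptic and activity-regulated genes, and markers of neurons, glia and other cell types, were therefore not analysed here, and the labelled cell type was not checked against markers. Likewise the Mbd3 gene could not be looked up by name as a check of the labels. Genes are given by identifier and by position on mRatBN7.2. In such bulk RNA, fewer cells of a type and less RNA per cell cannot be told apart.

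The gene with the smallest p-value was also the largest rise among called genes whose mean log2 CPM was 1 or more. ENSRNOG00000028956, on the plus strand of chromosome 7 from 9313098 to 9320165, with 1923 exonic bases, measured 7372, 2840 and 3181 CPM in rMBD3 cultures 1, 2 and 3. In GFP cultures 1, 2 and 3 the same gene measured 174.1, 174.2 and 194.7 CPM. The untransfected cultures 1, 2 and 3 had 168.8, 194.9 and 262.2 CPM. The rMBD3 values lay apart from all others, with culture 1 the highest, and the GFP and untransfected values overlapped. Over the 3 pairs, the log2 fold change of rMBD3 against GFP was 4.57 ± 0.35 (standard error, SE), a 23.8-fold difference, with an edgeR adjusted p of 1.16e-11. This SE, like each SE below, came from the fit of all 54 libraries and is not the spread of the 3 pairs. By culture, the log2 difference was 5.40, 4.03 and 4.03. Its share of all counts was 0.286% to 0.703% in the rMBD3 cultures. With the spread taken from the 6 compared libraries alone, the log2 fold change was 4.47 with the block and did not pass (edgeR adjusted p = 0.176). Counts per gene do not separate a transgene transcript from that of the rat gene, and whether this identifier is Mbd3 was not determined.

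The excess of ENSRNOG00000028956 was present in each condition of the series. In medium with magnesium the rMBD3 cultures averaged 15212 ± 2662 CPM (SD, n = 3) at 2 h, 8819 ± 1272 CPM at 6 h and 4464 ± 2524 CPM at 24 h. In magnesium-free medium they averaged 13858 ± 5672 CPM at 2 h, 9828 ± 799 CPM at 6 h and 4314 ± 3189 CPM at 24 h. The GFP and untransfected libraries of all conditions lay between 113 and 271 CPM, below the lowest rMBD3 library at 2291 CPM. The means of the rMBD3 cultures were thus lower at 24 h than at 2 h in both media. The test of the change in effect from 2 h to 24 h in magnesium medium gave a log2 difference of -1.94 ± 0.43 (SE), which did not pass over all genes (edgeR adjusted p = 0.234).

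**Figure D1:**
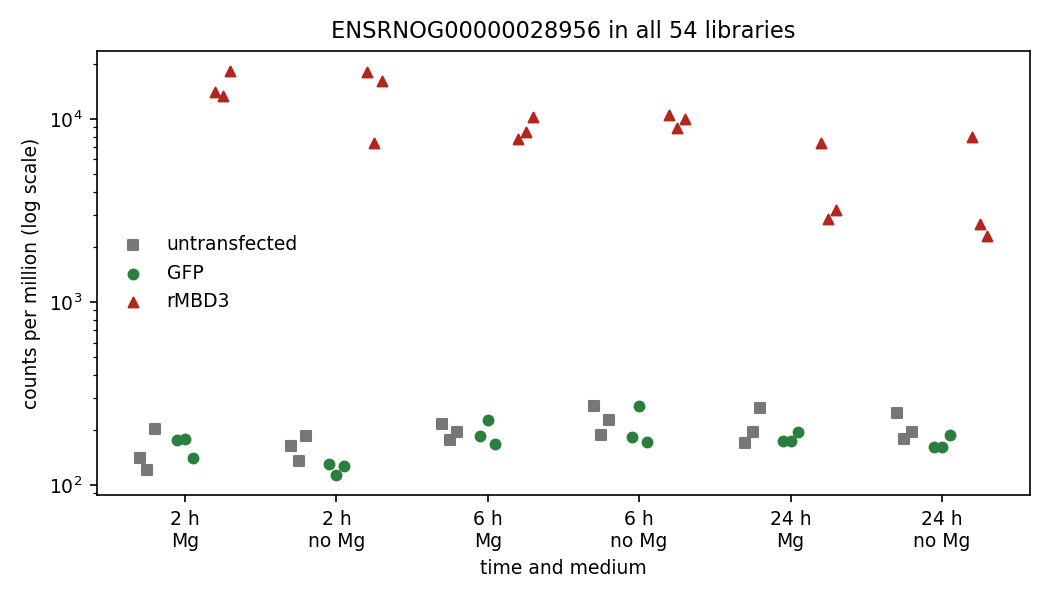
CPM of ENSRNOG00000028956 (vertical log axis) in each of the 54 libraries, by time and medium (horizontal axis), with squares for untransfected, circles for GFP and triangles for rMBD3 cultures. The rMBD3 libraries lie between 2291 and 18263 CPM and the other libraries between 113 and 271 CPM.

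Over the whole transcriptome, 140 of 17172 genes tested (0.815%) passed an edgeR adjusted p of 0.05. Of these, 47 (0.274%) were higher and 93 (0.542%) were lower in rMBD3. An unadjusted p under 0.05 was reached by 3300 genes (19.2%), of which 1397 were higher and 1903 lower. The number of calls rested on single cultures and on how the spread was estimated. The rMBD3 library of culture 1 stood apart: its chi-square per gene, over genes with 20 or more counts in a pair of libraries, was 297 against culture 2 and 262 against culture 3, and 46.1 between cultures 2 and 3. The GFP library of culture 1 did so less, with 122 and 93.3 against 51.9. Leaving out culture 1 gave 2491 calls, while leaving out culture 2 gave 2 and leaving out culture 3 gave 5. Without culture number as a block, 23 genes were called (6 higher, 17 lower), and with the 6 compared libraries alone edgeR called 0, with 2183 genes at an unadjusted p under 0.05. DESeq2 called 835 (259 higher, 576 lower). Without the 3 untransfected libraries of the same condition, whose spread enters the shared estimate, 1015 were called (275 higher, 740 lower).

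**Figure D2:**
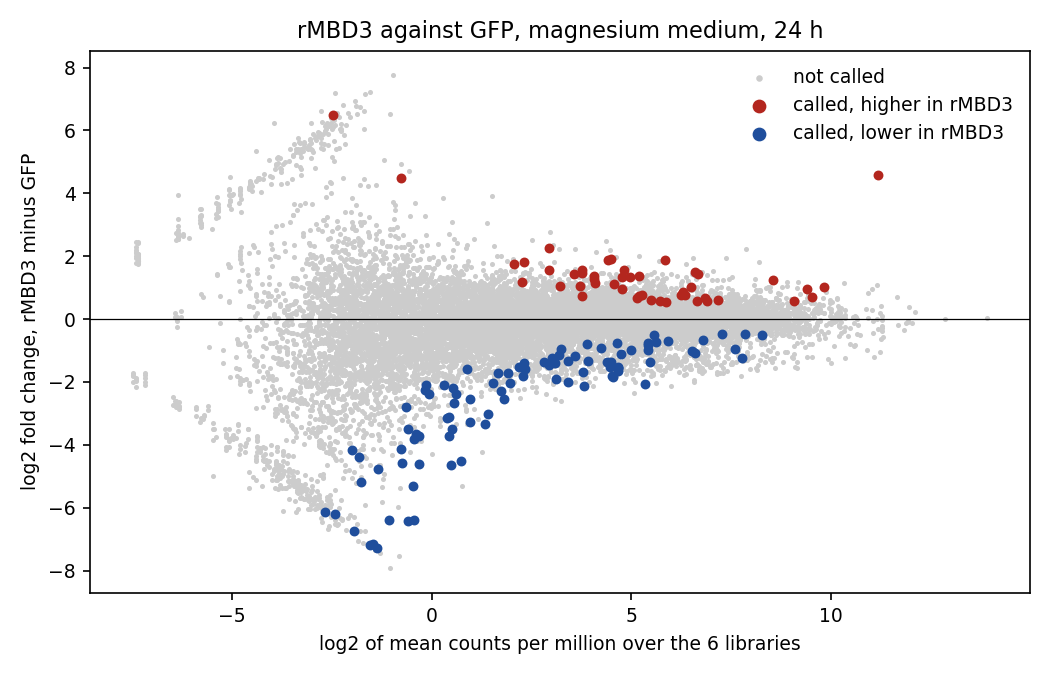
Log2 fold change of rMBD3 minus GFP (vertical axis) against the log2 of mean CPM over the 6 libraries (horizontal axis) for the genes tested at 24 h in magnesium medium. Red points are the 47 genes called higher in rMBD3, blue points the 93 called lower, grey points the rest; the red point far to the upper right is ENSRNOG00000028956, and several blue points at low level are genes with few or no counts in rMBD3.

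The 93 falling genes formed the larger group and moved further. Their median log2 fold change was -1.92, against 0.02 over all genes tested. Of the 93, 15 had 3 counts or fewer in the rMBD3 libraries together, including 6 with 0 counts. For those 6 genes, which had 26 to 59 counts in the GFP libraries together, the level in rMBD3 was at least 8.25-fold to at least 18.7-fold lower, taking a floor of 3 counts over the group. These bounds lie below the median of the 93 genes, so setting the 6 to their bounds could not move it from -1.92. The remaining 78 genes, with more than 3 counts in each group, had log2 fold changes from -4.65 to -0.47 with a median of -1.62.

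Among the 93 falling genes, 90 were lower in rMBD3 in all 3 culture pairs, against 18.7% of all genes tested. For 77 of them every rMBD3 library lay below every GFP library, which was so for 6.39% of all genes. These shares describe genes that were chosen by the same contrast. The median difference by culture was -1.61, -1.93 and -1.90 on the log2 scale for cultures 1, 2 and 3. Summed over the 93 genes, the GFP libraries held 3253, 2788 and 3099 CPM and the rMBD3 libraries 1909, 1361 and 1540 CPM.

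The 47 rising genes showed smaller differences. Their median log2 fold change was 1.13, and among the 46 with more than 3 counts in each group values ran from 0.54 to 4.57, where the highest was ENSRNOG00000028956. A log2 difference of at least 2 was seen in 3 of these 46 genes and of at least 1 in 28. Of the 47, 45 were higher in rMBD3 in all 3 culture pairs, against 17% of all genes tested, and 38 had every rMBD3 library above every GFP library, against 6.48%. Without ENSRNOG00000028956, the rising genes summed to 3970, 3382 and 3023 CPM in the GFP libraries and to 6399, 6992 and 5847 CPM in the rMBD3 libraries. The median difference was smallest in culture 1, at 0.69, and was 1.43 in culture 2 and 1.08 in culture 3.

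By a rule that asked for the same sign in all 3 pairs and an average level of 1 or more in log2 CPM, 43 rising and 53 falling genes qualified, and the 12 largest in each direction were examined more closely. The 12 largest rises ran from 1.43 to 4.57 on the log2 scale and lay on 11 chromosomes. In 8 of the 12, every rMBD3 library lay above every GFP library, against 6.48% of all genes tested. Without the block, 2 of these rises and 1 of the 12 falls were called. The 12 largest falls ran from -2.55 to -1.72 and lay on 10 chromosomes. In all 12, every rMBD3 library lay below every GFP library, against 6.39% of all genes tested. The rule chose these genes on the same 6 libraries, so the counts without overlap are a description only. Per exon length, the 12 largest falls averaged 1.02 to 37.5 RPKM (CPM divided by exon length in kilobases) in GFP and 0.205 to 9.82 RPKM in rMBD3. The 12 largest rises averaged 0.390 to 94.1 RPKM in GFP and 1.44 to 2321 RPKM in rMBD3.

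After ENSRNOG00000028956, the largest rise under the rule was that of ENSRNOG00000000500, on the plus strand of chromosome 20 from 6199182 to 6228584. It measured 8.89, 12.5 and 15.3 CPM in rMBD3 cultures 1, 2 and 3, and 6.34, 1.00 and 1.76 CPM in GFP cultures 1, 2 and 3. All rMBD3 values exceeded all GFP values, but GFP culture 1 lay close to rMBD3 culture 1. The log2 fold change was 2.27 ± 0.58 (SE), just inside the threshold (edgeR adjusted p = 0.0484). It passed the threshold neither without the block (adjusted p = 0.199) nor without culture 2 (0.480) or culture 3 (0.495), nor with the alternative scaling (0.0542) or without a filter on low counts (0.0604). Untransfected cultures 1, 2 and 3 held 1.78, 1.20 and 0.409 CPM, below every rMBD3 library. In magnesium-free medium this gene had a log2 fold change of 2.74 ± 0.59 at 24 h (edgeR adjusted p = 0.0968), 2.65 ± 0.59 at 6 h (0.331) and 2.35 ± 0.59 at 2 h (0.219). In magnesium medium it was 2.19 ± 0.58 at 6 h (adjusted p = 0.0944) and 1.38 ± 0.56 at 2 h (0.469). For GFP against untransfected cultures at 24 h with magnesium it was 1.22 ± 0.59 (edgeR adjusted p = 0.581).

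The largest fall under the rule belonged to ENSRNOG00000064417, on the minus strand of chromosome 1 from 154515668 to 154571633. GFP cultures 1, 2 and 3 held 9.20, 5.41 and 3.15 CPM and rMBD3 cultures held 2.21, 0.215 and 0.810 CPM. The groups did not overlap, although the lowest GFP and the highest rMBD3 library were within 1 CPM of each other. The log2 fold change was -2.55 ± 0.54 (SE, edgeR adjusted p = 0.0165). It did not pass without the block (adjusted p = 0.0586), without culture 2 (0.353) or without culture 3 (0.306). Untransfected cultures 1, 2 and 3 held 3.82, 1.57 and 8.95 CPM, and culture 2 among them lay within the range of rMBD3.

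ENSRNOG00000066176, on the plus strand of the X chromosome from 149670257 to 149677373, had the next largest fall under the rule. GFP cultures 1, 2 and 3 held 5.26, 4.69 and 6.70 CPM and rMBD3 cultures held 0.398, 1.75 and 1.18 CPM. Its groups were clearly apart, and its log2 fold change was -2.29 ± 0.47 (SE, edgeR adjusted p = 0.0144). It kept its call without the block (adjusted p = 0.0242) and lost it without culture 2 (0.0784) or culture 3 (0.393). Untransfected cultures 1, 2 and 3 held 7.88, 2.32 and 11.6 CPM, all above the rMBD3 libraries. Both of these falling genes were far higher at 2 h in magnesium medium, where GFP cultures averaged 23.3 ± 4.56 and 29.1 ± 6.81 CPM (SD, n = 3) and rMBD3 cultures 17.8 ± 3.33 and 23.9 ± 7.08 CPM, in the same order.

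**Figure D3:**
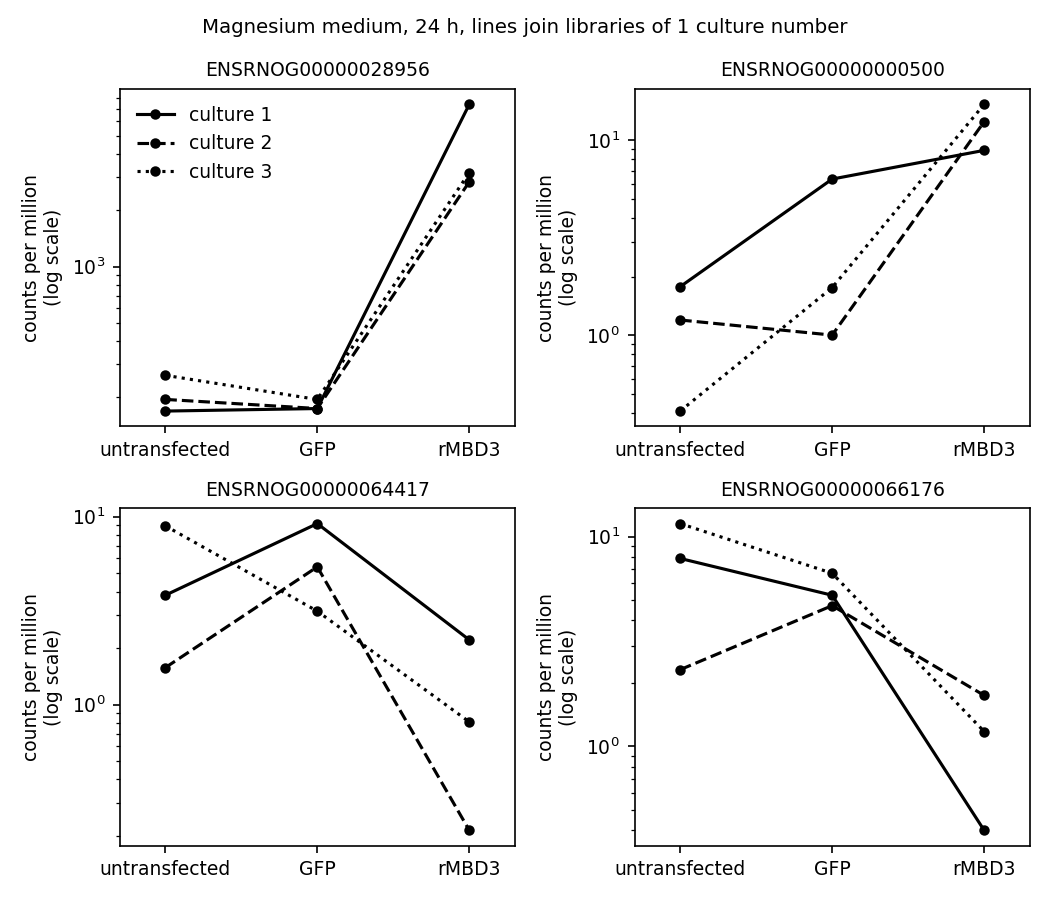
CPM (vertical log axes) of 4 genes in the untransfected, GFP and rMBD3 cultures at 24 h in magnesium medium, with lines joining the libraries of 1 culture number. The upper genes, ENSRNOG00000028956 and ENSRNOG00000000500, were highest in rMBD3, and the lower genes, ENSRNOG00000064417 and ENSRNOG00000066176, were lower in rMBD3 than in GFP in each culture.

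The untransfected cultures of the same medium and time differed widely among themselves for the falling genes. Relative to the mean of the GFP libraries, the median of the 93 genes in untransfected cultures 1, 2 and 3 was -0.07, -1.24 and 0.75 on the log2 scale. The GFP cultures spanned -0.26 to 0.26 on this scale and the rMBD3 cultures measured -1.26, -2.26 and -1.90. In untransfected culture 2, 81 of the 93 genes lay below all GFP libraries, and in untransfected culture 3, 57 lay above all of them. The genes were chosen for being high in these GFP libraries and low in rMBD3, so these counts are a description only. The same counts over all genes were not computed. Mitochondrial genes took 3.16%, 1.75% and 4.90% of the counts in untransfected cultures 1, 2 and 3, so the culture with the lowest share had the lowest falling genes and that with the highest share the highest. In the rMBD3 cultures the shares were 3.56%, 2.24% and 1.85%, and in the GFP cultures 3.88%, 2.37% and 2.62%. The part of mitochondrial content in these differences was not tested.

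For the 47 rising genes the untransfected cultures were closer to GFP. Their median was 0.32, 0.35 and -0.31 in untransfected cultures 1, 2 and 3, against 0.97, 1.29 and 0.88 in rMBD3. No library of the untransfected group reached the lowest rMBD3 median. These genes were likewise chosen on the rMBD3 and GFP libraries, so this is a description only.

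Against untransfected cultures, rMBD3 cultures differed in 942 genes (5.49%) by edgeR, 218 higher and 724 lower. Leaving out culture 3 reduced this number to 5, leaving out culture 2 gave 386 and leaving out culture 1 gave 2795. Between GFP and untransfected cultures 2 genes (0.0116%) passed by edgeR, both lower in GFP, and DESeq2 called 34. An unadjusted p under 0.05 was reached there by 1446 genes, 448 higher and 998 lower in GFP. The comparisons share libraries with each other and with the main comparison. Side by side, the 93 falling genes had a median log2 fold change of -1.61 for rMBD3 against untransfected and 0.07 for GFP against untransfected. The 47 rising genes had medians of 0.92 and -0.15 in those comparisons.

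Because only 2 genes passed the threshold between GFP and untransfected cultures, both are named here, chosen after their values were seen. ENSRNOG00000019476, on chromosome 9, held 79.0, 67.7 and 76.8 CPM in GFP cultures, 129, 127 and 125 CPM in untransfected cultures and 82.1, 104.7 and 90.9 CPM in rMBD3 cultures 1, 2 and 3. In this condition the virus-treated groups lay below the untransfected one, and the log2 fold change of GFP against untransfected was -0.77 ± 0.14 (SE, edgeR adjusted p = 0.0269). At 24 h without magnesium, however, rMBD3 cultures averaged 118.8 CPM and untransfected cultures 103.9 CPM. At 2 h with magnesium, GFP cultures averaged 186.6 CPM and untransfected cultures 180.3 CPM. In the remaining conditions the means of both virus-treated groups lay below the untransfected mean. ENSRNOG00000051993, on chromosome 16, had 0, 0 and 1 counts in GFP cultures, 3, 0 and 3 counts in rMBD3 cultures and 39, 15 and 25 counts in untransfected cultures 1, 2 and 3. Its ratio of untransfected to GFP was 84.8, with a 95% counting interval of 14.8 to 3390 (exact binomial), and its edgeR adjusted p was also 0.0269. The first call was lost without culture 2, the second without culture 1 and both without culture 3, when edgeR called 0 genes, with 1546 at an unadjusted p under 0.05.

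The same contrast of rMBD3 against GFP in the other 5 conditions used other libraries from the same culture numbers. These conditions gave few calls by edgeR: 4 genes (0.0233%) in magnesium-free medium at 24 h, 46 (0.268%) in magnesium medium at 6 h and 18 (0.105%) in magnesium medium at 2 h. In magnesium-free medium, 1 gene (0.00582%) was called at 6 h and 2 (0.0116%) at 2 h. The gene called in every one of them was ENSRNOG00000028956, with log2 fold changes from 4.61 to 6.78.

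Most of the 93 falling genes had a negative log2 fold change in these conditions too, with smaller medians. In magnesium medium at 6 h, 91 of the 93 had a negative log2 fold change, against 54.2% of all genes tested, with a median of -0.58. In magnesium-free medium at 24 h, 79 of 93 did, against 46.4%, with a median of -0.57. In magnesium medium at 2 h the count was 82 of 93, against 58.5%, with a median of -0.32. In magnesium-free medium it was 75 of 93 at 6 h, against 51%, and 69 of 93 at 2 h, against 51.5%, with medians of -0.26 and -0.16. Among the 93 genes, 2 were called lower at 6 h with magnesium, against 14 of all genes tested. At 24 h without magnesium it was 1, against 2.

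Most of the 47 rising genes had a positive log2 fold change in the other conditions, but few were called. In magnesium-free medium at 24 h, 46 of the 47 had a positive log2 fold change, against 53.6% of all genes tested, with a median of 0.58. In magnesium medium the count was 45 of 47 at 6 h, against 45.8%, and 40 of 47 at 2 h, against 41.5%, with medians of 0.59 and 0.32. In magnesium-free medium it was 43 of 47 at 6 h, against 49%, and 38 of 47 at 2 h, against 48.5%, with medians of 0.61 and 0.38. Called higher at 24 h without magnesium were 2 of the 47, against 2 of all genes tested. With magnesium it was 3 at 6 h, against 32, and 3 at 2 h, against 16. Without magnesium it was 1 at 6 h, against 1, and 2 at 2 h, against 2. The genes of a group share libraries and are not independent replicates, so these counts carry no test.

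**Figure D4:**
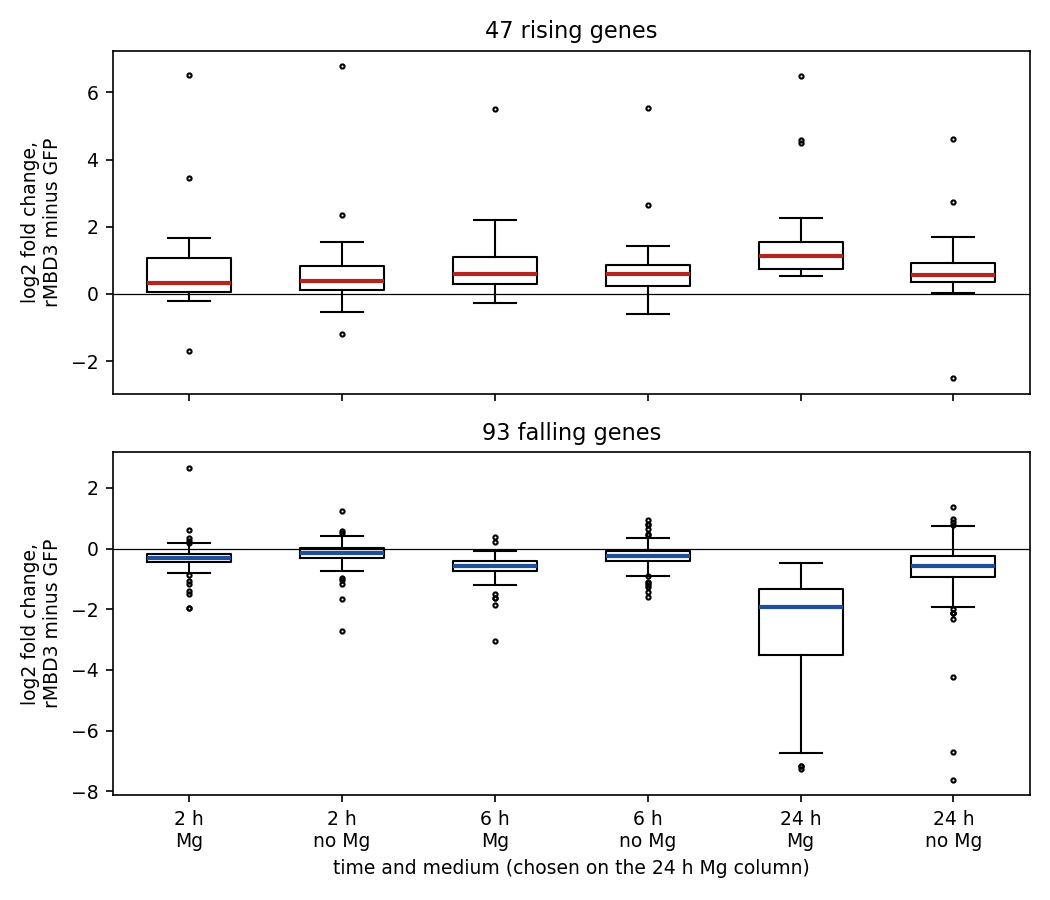
Log2 fold change of rMBD3 minus GFP (vertical axes) for the 47 rising genes (upper panel) and the 93 falling genes (lower panel) in each time and medium (horizontal axis). Boxes show the quartiles and median, whiskers reach 1.5 times the interquartile range and dots are genes beyond; the genes were chosen on the 24 h Mg column, and the medians in the other columns run from 0.32 to 0.61 and from -0.58 to -0.16.

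Tests of the difference itself found no gene whose rMBD3 effect differed between conditions by edgeR. Each test covered 17172 genes. At 24 h, 0 genes passed for magnesium minus magnesium-free medium (0%), where 728 of the 17172 had an unadjusted p under 0.05 and DESeq2 called 2. For 24 h minus 2 h in magnesium medium, edgeR called 0, with 1234 at an unadjusted p under 0.05, and DESeq2 called 8. For 24 h minus 6 h, edgeR called 0, with 897 at an unadjusted p under 0.05, and DESeq2 called 0. Leaving out culture 1 raised the edgeR counts to 2, 103 and 88 for these tests. The smallest adjusted p with all cultures was 0.305, 0.234 and 0.503. For ENSRNOG00000064417 the log2 fold change was -0.07 ± 0.54 in magnesium-free medium at 24 h, and the difference between media was -2.48 ± 0.76 (SE, edgeR adjusted p = 0.737).

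In cultures without virus, many of the falling genes declined over the hours of the experiment. Between 2 h and 24 h in magnesium medium, a contrast added after seeing the data, untransfected cultures changed in 5302 genes (30.9%) by edgeR, of which 2340 (13.6%) rose and 2962 (17.2%) fell. Of the 93 genes lower in rMBD3, 58 fell with time, 0 rose with time and 85 had a negative log2 fold change, against 49% of all genes. Their median change with time was -1.43. Of the 47 genes higher in rMBD3, 13 rose with time and 6 fell, and 28 had a positive log2 fold change, against 51% of all genes, with a median of 0.27. ENSRNOG00000064417 and ENSRNOG00000066176 fell with time in the untransfected cultures, with log2 fold changes of -1.93 ± 0.51 and -1.66 ± 0.43 (SE, edgeR adjusted p = 0.00324 and 0.00328). Without culture 2 the number of genes that changed with time dropped to 1692.

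The falling genes were high at 2 h in all constructs. Relative to the mean of GFP at 24 h in magnesium medium, their median at 2 h was 1.16 to 1.38 in rMBD3, 1.52 to 1.69 in GFP and 1.24 to 1.41 in untransfected cultures with magnesium. At 6 h with magnesium it was 0.07 to 0.40 in rMBD3, 0.36 to 1.19 in GFP and 0.27 to 0.69 in untransfected cultures. At 24 h with magnesium the untransfected cultures had -0.07, -1.24 and 0.75, and culture 3 was no lower than at 6 h (0.63). At 24 h without magnesium it was -2.08 to -1.01 in rMBD3, -1.69 to -0.32 in GFP and -1.28 to -0.04 in untransfected cultures. GFP cultures without magnesium at 24 h thus lay lower than GFP cultures with magnesium, and overlapped with rMBD3 cultures. The genes were chosen for being high in GFP and low in rMBD3 at 24 h with magnesium, so distances from those libraries are a description only. Within the magnesium-free group at 24 h, rMBD3 was below GFP in each culture, at -1.01 against -0.32 in culture 1, -2.08 against -1.69 in culture 2 and -2.02 against -0.96 in culture 3.

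The rising genes were chosen for their difference at 24 h with magnesium. Outside that condition, their median separated rMBD3 from GFP libraries at each time and medium. In magnesium medium it was 0.28 to 0.50 in rMBD3 and -0.06 to 0.01 in GFP at 2 h, and 0.54 to 1.01 in rMBD3 and 0.00 to 0.21 in GFP at 6 h. In magnesium-free medium at 24 h it was 0.90 to 1.09 in rMBD3 and 0.27 to 0.63 in GFP.

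**Figure D5:**
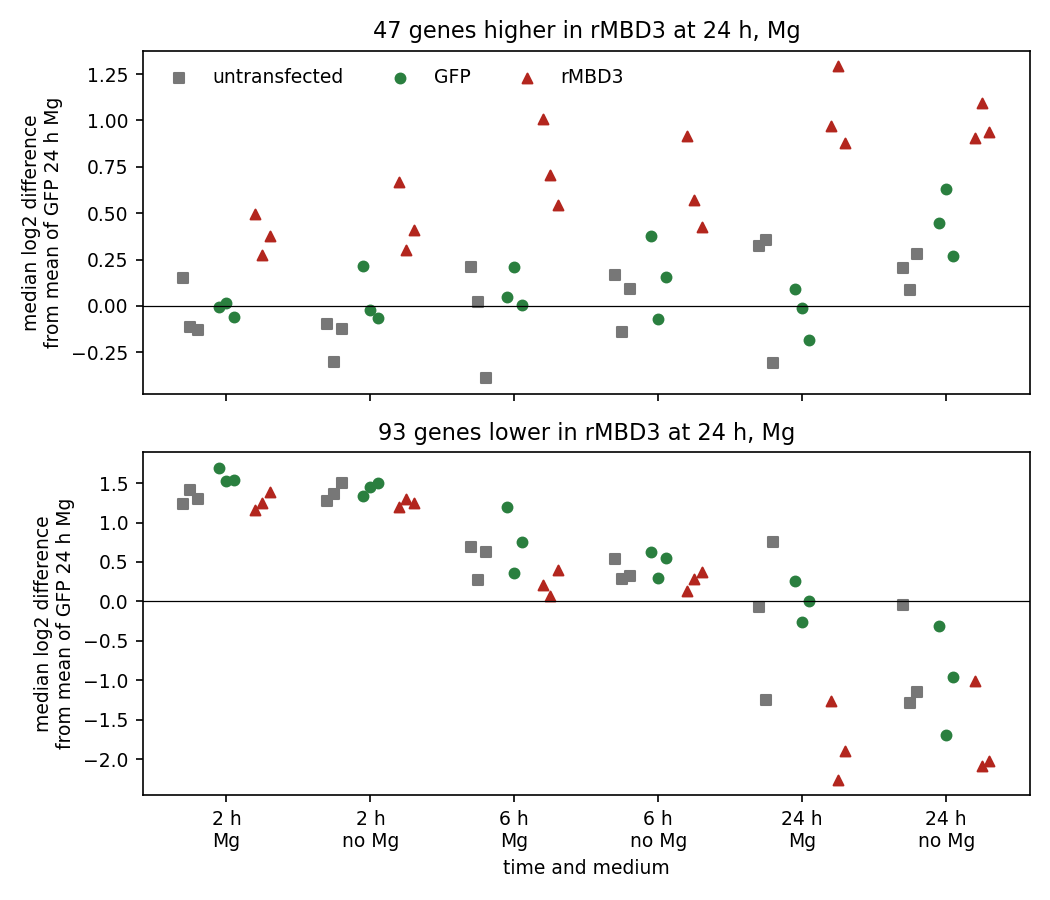
Median log2 difference from the mean of the GFP libraries at 24 h in magnesium medium (vertical axes) for the 47 rising genes (upper panel) and 93 falling genes (lower panel) in each of the 54 libraries, by time and medium (horizontal axis). Falling genes were high at 2 h in all constructs; at 24 h with magnesium the rMBD3 libraries lay at -1.26, -2.26 and -1.90, while the untransfected libraries spread from -1.24 to 0.75, with culture 3 no lower than at 6 h.

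Falling and rising genes differed in the length of DNA they cover. The median span from start to end was 16164 bases for the falling genes, 44532 bases for the rising genes and 20445 bases for all genes tested. Of 5421 genes with a span under 10 kb, 35 fell (0.646%) and 3 rose (0.0553%). Between 10 and 100 kb, 44 of 9478 genes fell (0.464%) and 33 rose (0.348%). Between 100 and 500 kb, 12 of 2069 fell (0.58%) and 11 rose (0.532%), and over 500 kb, 2 of 204 fell (0.98%) and 0 rose. Over all genes tested, 0.542% fell and 0.274% rose. The median number of exonic bases per gene differed less, at 2885 for falling, 3364 for rising and 2834 for all genes. In the class of genes with the fewest exonic bases, however, 6 of 1639 fell (0.366%) and 0 rose. In the class with the most, 30 of 5030 fell (0.596%) and 19 rose (0.378%).

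Across all genes of a span class, the median log2 fold change was -0.11 under 10 kb, 0.06 from 10 to 100 kb, 0.08 from 100 to 500 kb and -0.37 over 500 kb. The short genes were below 0 in each culture pair, with medians of -0.10, -0.07 and -0.06. The 204 longest genes were below 0 in each pair as well, at -0.11, -0.38 and -0.88, a wide spread with culture 3 the lowest. Short genes had lower levels, with a median of 3.12 RPKM against 7.30 RPKM for spans of 10 to 100 kb. Within the genes of 10 RPKM or more, the median was -0.09 for spans under 10 kb (1822 genes) and 0.05 for spans of 10 to 100 kb (4078 genes). By exonic bases, the median log2 fold change was -0.29 in the lowest class (1639 genes), further below 0 than for short spans. It was -0.17, -0.16 and -0.13 in culture pairs 1, 2 and 3. The next classes, of 3640, 6863 and 5030 genes, had medians of -0.07, 0.04 and 0.08. The lowest class also had a low level, with a median of 1.97 RPKM. Span and exonic bases were not tested against each other.

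By level, 1 of 1138 genes under 0.1 RPKM was called (0.0879%), and it fell. Among genes of 0.1 to 1 RPKM, 25 of 3443 fell (0.726%) and 3 rose (0.0871%). Among those of 1 to 10 RPKM, 33 of 6010 fell (0.549%) and 23 rose (0.383%). Among those of 10 RPKM or more, 34 of 6581 fell (0.517%) and 21 rose (0.319%). Over all genes tested, 0.542% fell and 0.274% rose. The median level over all 54 libraries was 5.22 RPKM for falling, 6.81 RPKM for rising and 5.63 RPKM for all genes tested.

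The called genes lay across the genome. Chromosome 1, with 2155 genes tested, held 15 falling and 4 rising genes (0.882% called), and the X chromosome, with 591 tested, held 6 falling and 1 rising gene (1.18%), both near the 0.815% called over all genes. The called genes included 3 neighbouring pairs within 100 kb of each other, and in 2 of these pairs the neighbours moved in opposite directions. One such pair was ENSRNOG00000000500, which rose, and a falling gene on the other strand 63126 bases away. The number of neighbouring pairs expected among as many genes was not computed, so nothing is read from the 3 found. The 25 mitochondrial genes tested had a median log2 fold change of -0.31 and a smallest edgeR adjusted p of 0.160, too few genes to read anything from their calls at the overall share of 0.815%.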

How the data were processed

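Per the labels' protocols, RNA was prepared as stranded mRNA libraries. Per the file headers, the authors counted read pairs per gene with featureCounts 2.0.0 (strand setting 2, minimum mapping quality 3) on the Ensembl annotation, release 105, of mRatBN7.2, whereas the labels' protocols name rn6. The deposited counts were used as such; a second deposited table of log2 values was not used.

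Genes were filtered by filterByExpr (minimum count 10, minimum total 15), scaled by TMM and tested with edgeR 4.0.16 (R 4.3.3) in a robust quasi-likelihood fit of all 54 libraries. The fit had 18 group coefficients and culture number as a block, leaving 34 residual degrees of freedom. P-values were adjusted by Benjamini-Hochberg over 17172 genes, with a threshold of 0.05. Each SE was the log2 fold change divided by the root of the F statistic. CPM and RPKM were computed from TMM-scaled counts. The code was tested on simulated data.

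The labels give culture number as biological replicate; whether cultures came from separate litters is not given in the sources used here. Deviations from the group means of same-numbered rMBD3 and GFP libraries correlated at 0.349, 0.260 and 0.106 for cultures 1, 2 and 3, all above 0.1, so the numbers were taken to pair the samples; rMBD3 culture 3 correlated more with GFP culture 2 (0.259). No 2 libraries of a group were copies.

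Genes were named if called, of the same sign in all 3 pairs and at a mean log2 CPM of at least 1, taking the 12 largest per direction, and at most 2 identifiers per direction are printed. The comparison, lists and tests were chosen with earlier results of these data known. Alternatives were no block, other blocks, relative log expression factors, no filter, fewer libraries and DESeq2 1.42.0 (total of at least 10).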

Additional observations from a re-analysis of the deposited data

How the results depend on the processing

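The count of calls for rMBD3 against GFP (140) varied widely. Without culture number as a block it was 23, all of them among the 140, with a block within each time point 1416, and without the low-count filter 74. Relative log expression factors gave 111. The 6 libraries alone gave 0 with the block and 0 without it (1022 at an unadjusted p under 0.05), and the 18 libraries at 24 h gave 1. Without the 3 untransfected libraries at 24 h with magnesium, an alternative chosen after seeing the data, it was 1015. DESeq2 gave 835, which held all 140. Leaving out a culture gave 2 to 2491. For rMBD3 against untransfected (942), the count was 201 without the block, 599 without the filter, 1752 by DESeq2 and 5 to 2795 without a culture. For GFP against untransfected (2), it was 34 by DESeq2 and 0 to 9 without a culture. The tests of a difference in effect (0 each) gave 0 to 2 between media, 0 to 103 for 24 h minus 2 h and 0 to 88 for 24 h minus 6 h when a culture was left out, and DESeq2 gave 2 and 8 for the first and second. The count of genes that changed with time in untransfected cultures (5302) was 1692 to 6679 without a culture. The median of genes with a span under 10 kb (-0.11) was -0.14 with relative log expression factors, -0.14 by DESeq2, -0.084 with the 6 libraries alone and no block, and -0.14 to -0.090 without a culture. Without the block, 2 of the 12 largest rises and 1 of the 12 largest falls under the naming rule were called, and the 2 genes called between GFP and untransfected cultures kept their calls. The causes of these shifts were not tested. With 3 libraries per group, and 15 falling genes at 3 counts or fewer in rMBD3, fold sizes of the lowest genes are limited by depth.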
